A study of Caenorhabditis elegans with 2 samples.

Results

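Autosomal intron peaks are the sites of tagged HLH-30 that lay inside a protein-coding gene on chromosomes I to V, away from its promoter. HLH-30, a transcription factor of the basic helix-loop-helix (bHLH) kind, is the worm homologue of TFEB, which in mammals activates genes for autophagy and lysosomes. A peak was counted as a member when its summit lay inside a protein-coding gene, in no exon of any gene, and outside every promoter window. Promoter windows took in 1000 bp before and 200 bp after every 5′ end of a protein-coding transcript. The thresholded list held 5480 autosomal and 1688 X peaks, and 779 of the autosomal ones were members (14.2%, 95% Wilson interval 13.3 to 15.2). The rule used position alone and no signal or sequence, while which genes can be hosts, and with how many peaks, depends on it.

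The data came from chromatin immunoprecipitation followed by sequencing (ChIP-seq) of whole hermaphrodites at the fourth larval stage (L4). All worms were of strain OP433, which carries unc-119(tm4063) on chromosome III and the transgene wgIs433, from which HLH-30 is made with GFP and FLAG at its C-terminus. Both libraries, replicates 1 and 2, were made with an antibody against GFP from separate biosamples of this 1 line, and they form 1 group with no untagged or wild-type samples among the files used here. A signal value is the authors' own score of how strong a peak is, its scale is not given, and the depth behind it is unknown because the lists hold no read counts. Since whole worms were used, the tissue in which a site was bound is unknown.

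bHLH factors bind as dimers to the E-box, CANNTG, and factors of the TFEB family are known for the form CACGTG. Introns of C. elegans can hold enhancers and internal promoters, and long first introns are a frequent place for both. Small RNA genes, such as those for tRNAs and snoRNAs, often lie inside introns of protein-coding genes and have promoters of their own. A ChIP-seq peak marks DNA recovered with the tagged protein and does not by itself show direct contact or an effect on the host gene.

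The windows of the strongest members show the range of sequences found under intron peaks. Each is 101 bases of WBcel235 (ce11), plus strand, 5′ to 3′, centred on the summit. Capitals mark the E-box CACGTG and the E-box CACATG (also read as CATGTG on the other strand) and the 8-base string TGCGTCTC (GAGACGCA on the other strand), which was chosen after the hexamers below had been seen. The first windows are those of 6 of the 7 strongest members, in the order printed chrIV:2602115-2602215, chrV:6224580-6224680, chrIII:349922-350022, chrII:9603556-9603656, chrV:19529343-19529443 and chrIII:12568400-12568500.
epg-9: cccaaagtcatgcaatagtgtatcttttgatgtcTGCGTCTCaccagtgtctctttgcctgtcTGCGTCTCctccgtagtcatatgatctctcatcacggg
W06H8.6: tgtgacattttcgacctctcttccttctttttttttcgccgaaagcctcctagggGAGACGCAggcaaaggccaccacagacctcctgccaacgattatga
gei-4: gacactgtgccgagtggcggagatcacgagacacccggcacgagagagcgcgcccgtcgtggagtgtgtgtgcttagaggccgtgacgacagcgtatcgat
nhr-19: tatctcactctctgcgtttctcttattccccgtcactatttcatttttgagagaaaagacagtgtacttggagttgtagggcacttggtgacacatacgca
Y43F8B.2: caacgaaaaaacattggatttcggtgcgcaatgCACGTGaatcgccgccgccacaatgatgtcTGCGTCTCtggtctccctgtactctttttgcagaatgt
aakg-1 intron 5: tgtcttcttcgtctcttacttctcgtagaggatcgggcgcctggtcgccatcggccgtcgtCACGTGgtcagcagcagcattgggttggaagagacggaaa

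The strongest intron peak, in epg-9, held the string TGCGTCTC in 2 places and neither CACGTG nor CACATG. Its window also held CATATG, another form of the E-box. The window in W06H8.6 held the string once, on the other strand, and those in gei-4 and nhr-19 held neither marked E-box nor the string. That in nhr-19 held CACTTG, another form (CAAGTG on the other strand). The window in Y43F8B.2 held both a CACGTG and the string, and that in aakg-1 a CACGTG that began 11 bases right of the summit. The next windows were chosen as strong members with an E-box, CACGTG in daf-14, fkh-7 and pkg-2 and CACATG in crh-2, psd-1 and the second strongest peak of aakg-1. They lie at chrIV:10252445-10252545, chrIV:5591269-5591369, chrIV:8527821-8527921, chrII:5182579-5182679, chrIII:7272287-7272387 and chrIII:12549741-12549841.
daf-14: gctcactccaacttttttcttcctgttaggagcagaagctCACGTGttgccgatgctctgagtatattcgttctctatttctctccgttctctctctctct
fkh-7: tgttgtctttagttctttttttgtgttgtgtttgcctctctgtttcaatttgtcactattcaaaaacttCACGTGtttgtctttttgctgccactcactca
pkg-2: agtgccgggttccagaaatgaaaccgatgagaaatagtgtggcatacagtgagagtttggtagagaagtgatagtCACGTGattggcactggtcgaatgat
crh-2: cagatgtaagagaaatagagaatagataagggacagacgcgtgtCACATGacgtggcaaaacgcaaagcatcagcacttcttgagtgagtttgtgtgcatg
psd-1: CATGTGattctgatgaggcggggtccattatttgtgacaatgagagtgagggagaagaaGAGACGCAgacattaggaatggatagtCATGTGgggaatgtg
aakg-1 intron 1: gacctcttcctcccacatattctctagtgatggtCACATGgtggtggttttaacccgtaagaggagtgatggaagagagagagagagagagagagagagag

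In daf-14 the CACGTG began 10 bases left of the summit, in crh-2 the CACATG began 6 bases left of it, and psd-1 held 2 CACATG sites and 1 copy of the string.

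Intron peaks were moderately strong and were found in both replicates for the most part. Their pooled signal ran from 31.9 to 1388 with a median of 57.7 (quartiles 42.5 and 90.3), against 66.4 for 2962 autosomal promoter peaks, 61.2 for 1329 autosomal intergenic peaks and 54.5 for 288 intron peaks on the X chromosome. In replicate 1 the median was 29.6 over all 779 members, and in replicate 2 it was 29.6 over the 778 that overlapped an entry of that list. The replicate 1 value was over 2-fold higher at 6.55% of members and the replicate 2 value at 5.78%. Across members, which share both libraries, the replicate signals had a Spearman's rho of 0.678, against 0.786 across promoter peaks.

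**Figure D1:**
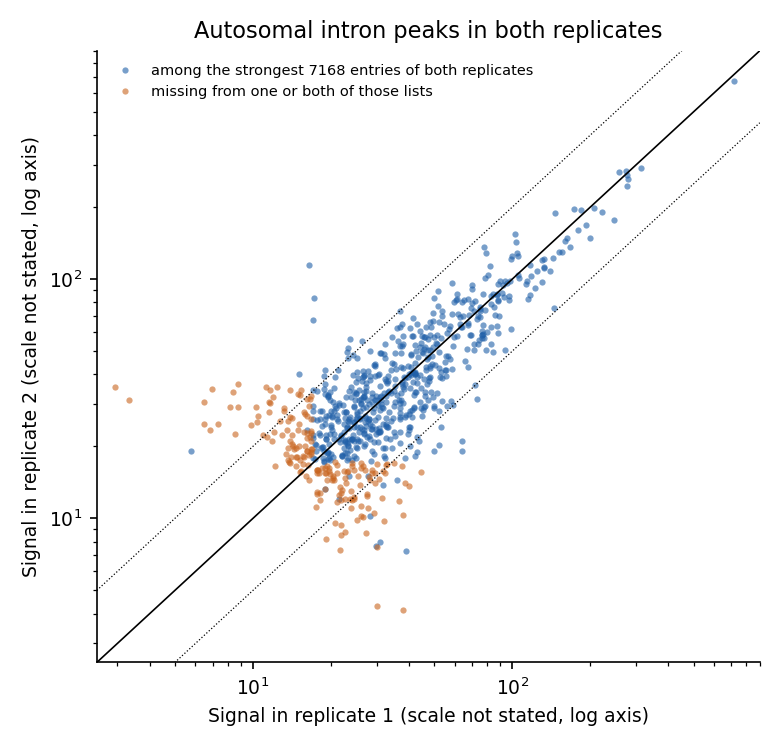
Signal of each autosomal intron peak with an entry in both replicates, in replicate 1 (x axis) and replicate 2 (y axis), both on log axes and on the authors' scale. Points are peaks, the solid line marks equal signal and dotted lines a 2-fold difference. Strong peaks lie near the line, and the orange peaks sit at the weak end. Orange marks peaks missing from the strongest entries of at least 1 replicate, counting as many entries as the thresholded list holds. All 779 members overlapped some entry of replicate 1, and 778 some entry of replicate 2.

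To compare recovery between classes, a peak was called found in a replicate alone when it overlapped one of that replicate's strongest entries, as many of them as the thresholded list holds. Of the intron peaks, 595 of 779 (76.4%) were found in both replicates, against 80.2% of promoter peaks, a difference of -3.87 percentage points (95% interval -7.18 to -0.56; Fisher's exact test, adjusted p = 0.0383 over 8 comparisons). The share was 79.2% of intergenic peaks, and the difference of -2.78 points (-6.47 to 0.92) did not pass (Fisher's exact test, adjusted p = 0.225). Intron peaks were also less often among the strongest of 5 equal parts of the list by signal, 16.6% against 680 of 2962 promoter peaks (difference -6.40 points, -9.42 to -3.38; Fisher's exact test, adjusted p = 3.58e-04). Against the 17.5% of intergenic peaks the difference was -0.90 points (-4.21 to 2.42), which did not pass. In 5 equal parts of the members by signal, all 156 of the strongest were found in both replicates. In the part above the weakest it was 66.0%, and in the weakest 21.3%. This gradient is largely set by the definition, since the thresholded list and the replicate entries were cut at the same rank of signal. Strong peaks then pass and those near the cut drop out, so it does not measure reproducibility. The part of signal in the differences between classes was not tested. Among the 3584 strongest peaks of the whole list the difference in recovery between intron and promoter peaks was 0.0596 points (Fisher's exact test, adjusted p = 1.00). Recovery of strong peaks is close to complete by the same definition, with 100% and 99.4% in the 2 strongest parts of the members. A difference near 0 there was thus largely fixed in advance and does not show the part of signal. Peaks are the units of these tests and are not biological replicates, and the intervals cover counting error only.

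The strongest member stood apart from the rest. This peak, in epg-9, a gene of the complex that starts autophagy, had a pooled signal of 1388 and ranked first of all thresholded peaks (chromosome IV, 2601898 to 2602418). Its replicate values were 719 and 675, and its summit lay in an intron of 1824 bp, 1024 bp downstream of the nearest 5′ end of epg-9 and 79 bp outside the window of another, further downstream. The second, in the first intron of gei-4 (chromosome III, 349741 to 350205), had 606, or less than the epg-9 peak by a wide margin, with 313 in replicate 1 and 292 in replicate 2. No other member came close to the epg-9 value in either replicate.

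The third lay in W06H8.6, with 559 (275 and 282 in replicates 1 and 2), and the fourth in T28F4.1 on chromosome I, with 548 (276 and 273). The fifth lay in nhr-19, which encodes a nuclear hormone receptor, with 541 (chromosome II, 9603405 to 9603823). Its replicate values of 259 and 281 gave 270 ± 15.7 (SD, n = 2). Ranks 6 and 7 were the peak in Y43F8B.2, with 539, and that in aakg-1, which encodes a gamma subunit of the energy sensor AMPK, with 518 (chromosome III, 12568205 to 12568648). The aakg-1 peak had 277 in replicate 1 and 244 in replicate 2 and lay 5372 bp from the nearest protein-coding 5′ end. Both replicates thus gave these 7 peaks high and similar values, all above 240.

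Ranks 8 to 15 ran from 423 to 340. They lay in Y111B2A.12 (423), mnk-1, which encodes a kinase of the MNK family (412), pqn-41, which encodes a glutamine-rich protein (404), and the forkhead factor gene fkh-7 (375 and 340). The others were in T28B11.1 (374), crh-2, which encodes a protein of the CREB family (358), and daf-14, which encodes a SMAD of the TGF-beta pathway that controls entry into the dauer stage (351). The widest split between replicates in this set was in Y111B2A.12, with 247 in replicate 1 and 176 in replicate 2. All 15 were found in both replicates.

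The weakest agreement was among weak members, with few exceptions. In ntl-3 the signal was 2.95 in replicate 1 and 35.4 in replicate 2. A stronger member in mdt-26, which encodes a Mediator subunit, had 16.5 in replicate 1 and a far higher value in replicate 2, with a pooled signal of 161. Like all 156 members of the strongest part by signal, it still counted as found in both replicates. Each replicate value is that of the overlapping entry with the nearest summit, and the part of this choice in the split was not tested. The member in cla-1 had no entry in replicate 2. These 3 were chosen for their split after the values had been seen.

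Several host genes held rows of intron peaks. Intron sequence in which a summit could meet the rule made up 22.2 Mb, 26.9% of the autosomes, and fell in 14843 protein-coding genes. Of these genes, 483 held a member, which is 3.25% of them. One peak was found in 329 hosts, 2 in 88, and 3 or more in 66, and the last group of hosts together held 279 members. Another member's summit lay within 1000 bp of 157 members (20.2%) and within 5000 bp of 415 (53.3%). The members in hosts with at least 3 peaks had a median signal of 63.3, against 52.9 for the 324 that were alone in their host. A count of peaks in a gene is also set by its length, and the hosts had a median of 4174 bp of allowed intron sequence, against 610 bp in the other genes.

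The host with the most was daf-5, which encodes a Sno/Ski protein of the dauer TGF-beta pathway, with 10 peaks in 19.1 kb (chromosome II, 14033216 to 14052304). Their signals ran from 46.3 to 278, all 10 were found in both replicates, and 4 held either of the E-boxes CACGTG and CACATG within 50 bp. It was followed by spsb-1, which encodes a protein with a SPRY domain and a SOCS box, with 9 peaks (34.3 to 210). Then came fkh-7 (8 peaks, of up to 375), pkg-2, which encodes a cGMP-dependent protein kinase (8, 44.0 to 338), and daf-16, the FOXO factor of insulin-like signalling (8, 35.7 to 109). In pkg-2, 5 of the 8 peaks held either E-box, and 7 of the 8 had higher signal in replicate 2, the exception having 67.5 in replicate 1 and 64.2 in replicate 2.

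The gene rpoa-1, which encodes the largest subunit of RNA polymerase I, held 7 peaks (34.2 to 137). The last 4 of the 10 held 6 each: aakg-1 (66.0 to 518), nhr-19 (42.7 to 541), T28B11.1 (34.2 to 374) and ccch-1, which encodes a CCCH zinc finger protein (33.4 to 140). The most densely covered of the 10 was nhr-19, with 11.5 peaks per 10 kb of allowed intron sequence, against 2.10 for aakg-1. In spsb-1 and aakg-1 no promoter window held a peak, and in the other 8 at least 1 did. A tie with vhp-1, also with 6 peaks, was broken by the summed signal.

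**Figure D2:**
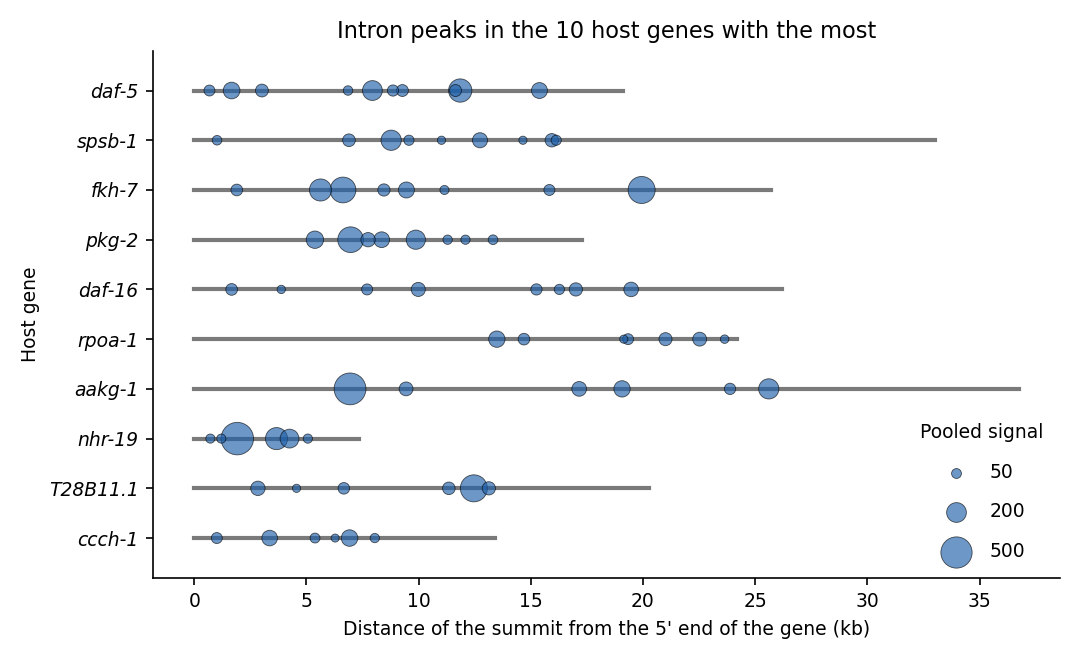
Position of each intron peak in the 10 host genes with the most of them. The x axis gives the distance of the summit from the 5′ end of the gene in kb, grey lines the gene's length, and circles grow in area with pooled signal. Peaks are spread along daf-5 and fkh-7, while those of nhr-19 fall within 7.35 kb.

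Genes with an intron peak often had a promoter peak as well. Of the 483 hosts, 232 (48.0%) had a peak in a promoter window, against 17.8% of the 14360 other genes with allowed intron sequence (Fisher's exact test, two-sided, p = 9.05e-50). Host genes are longer, so the same shares were taken within 5 equal parts of the genes by allowed length. In the longest part 47.4% of 378 hosts had a promoter peak, against 21.9% of the others (exact test, p = 1.19e-23). In the next it was 52.2% of 67 hosts against 17.4%, in the one after 54.2% of 24 hosts against 14.6%, and then 45.5% of 11 hosts against 17.1%. In each of these parts the share was higher in hosts than in other genes. The shortest part had 3 hosts, of which 0 had one, too few for a comparison. Length within a part, and the number of 5′ ends of a gene, each with its own window, were not matched. Expression and open chromatin of these genes were not measured here.

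Intron peaks were concentrated in first introns and in long stretches free of exons. First introns, counted in any transcript, held 354 peaks in 6.16 Mb of allowed sequence, 57.5 per Mb (95% exact Poisson interval 51.6 to 63.8), against 425 in 16046591 bp of later introns, 26.5 per Mb (24.0 to 29.1). The ratio was 2.17 (exact conditional binomial test, two-sided, p = 7.81e-26). All tests and intervals of density here treat peaks as independent, while 53.3% of members had another member's summit within 5000 bp. The p-values and intervals do not allow for such rows of peaks and are too narrow to that extent. Beyond 2000 bp from any protein-coding 5′ end the ratio was 3.43 (exact conditional binomial test, p = 1.22e-20), an alternative added after the data had been seen. By the lowest intron number in any transcript, 143 members lay in introns numbered 2, 77 in those numbered 3 and 50 in those numbered 4.

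Density grew with the length of the exon-free run around the summit. Runs up to 500 bp held 117 peaks in 7.24 Mb. Density was 16.6 per Mb in runs of 500 to 1000 bp, 32.2 in runs of 1000 to 2000 bp, 77.6 in runs of 2000 to 5000 bp and 106 in runs over 5000 bp. Within runs of 2000 to 5000 bp first introns had 109 per Mb and later introns 56.7. In runs over 5000 bp first introns had 99.1 (78.5 to 124) and later introns 114 (89.5 to 142), with overlapping intervals, so the higher density of first introns was not seen there. These bins were chosen after the data had been seen and carry no test.

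**Figure D3:**
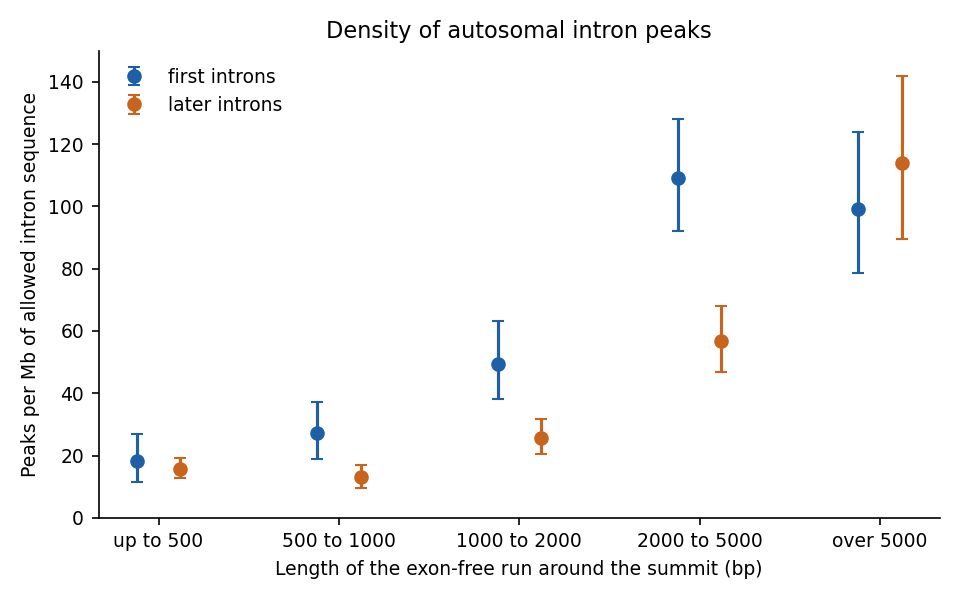
Autosomal intron peaks per Mb of allowed intron sequence (y axis) by the length of the exon-free run around the summit in bp (x axis), for first introns and later introns. Points are densities and bars 95% exact Poisson intervals. Density is highest in runs over 2000 bp, and first introns exceed later ones in runs from 500 to 5000 bp.

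The median member lay in an intron of 3577 bp (quartiles 1372 and 6902), 548 bp from the nearest exon, 1650 bp from the nearest protein-coding 5′ end and 38.7% of the way along its host. The nearest such 5′ end belonged to the host for 682 members (87.5%), 318 members (40.8%) were more than 2000 bp from any and 58 (7.45%) more than 5000 bp. Those 58 had a median signal of 67.2, against 51.8 for the 159 members within 1000 bp of a 5′ end, which can only lie downstream of one. Either E-box was present at 39.7% of the 58 (28.1 to 52.5) and at 23.9% of the 159 (17.9 to 31.1), a difference that was not tested. Within 200 bp outside the border of any promoter window lay 87 members, with a median signal of 63.5, and within 200 bp inside a border 72 intronic promoter peaks, with a median of 57.5. In all, 480 promoter peaks also lay inside a gene and in no exon, with a median of 61.5.

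Across chromosomes, density was highest on II and III. It was 46.7 peaks per Mb of allowed sequence on II, 44.0 on III, 32.7 on IV, 27.6 on I and 27.6 on V, and these were not tested against each other. Autosomal introns together had 35.1 per Mb, against 64.4 on the X chromosome, a ratio of 0.545 (exact conditional binomial test, two-sided, p = 4.92e-17). Peaks were again treated as independent. With each autosome cut into 3 equal lengths, the middle ones had 56.5 per Mb (50.5 to 62.9), against 24.7 in those at the left end and 30.3 in those at the right. Median signal differed little between chromosomes, from 55.9 on V to 60.5 on I.

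E-boxes were frequent under intron summits. CACGTG was present within 50 bp of 102 summits (13.1%), against 18 (2.31%) of equally wide control windows lying 500 bp to the left of each summit. The share was thus 5.67 times as high (adjusted p = 1.18e-15 by an exact McNemar test, with all 10 forms of the E-box adjusted together). CACATG was present at 149 (19.1%), against 23 (2.95%), or 6.48 times as high (adjusted p = 3.30e-24 by the same exact test). Of the other forms, CACCTG (ratio 3.14, adjusted p = 1.74e-04), CATATG (2.75, adjusted p = 0.00615) and CAGATG (1.75, adjusted p = 0.0406) passed the exact McNemar test and the other 5 did not. One or both of CACGTG and CACATG were at 241 members (30.9%), and 10 had both. Among 183794 windows of 101 bases that tile the allowed intron sequence, 1.35% held CACGTG, 2.28% held CACATG and 3.58% held either. Mean GC content was 43.9% at summits, against 35.8% in control windows and 32.4% in the tiles, and its part in these shares was not tested.

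The sites lay throughout the window, at a somewhat higher rate per base near its centre. CACGTG occurred 1.67 times per 1000 peaks and base within 10 bp of the summit (26 sites) and 1.18 times more than 30 bp away (33 sites). For CACATG these values were 2.57 (40 sites) and 2.03 (57 sites). The counts are small, and neither difference was tested. A T before and an A after the site were found at 40 of 165 CACATG sites (24.2%) and at 11.7% of CACGTG sites, against 19.6% and 12.6% at promoter summits.

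Intron peaks held CACATG more often than promoter peaks did. Its share was 19.1% in introns against 12.3% in promoters, a difference of 6.84 percentage points (3.83 to 9.84; Fisher's exact test, adjusted p = 1.54e-05). CACGTG was at 13.1% of intron peaks and 9.82% of promoter peaks, a difference of 3.27 points (0.67 to 5.87; Fisher's exact test, adjusted p = 0.0275). The CACGTG call was lost when replicate 2 stood alone (1.02 points, exact test, adjusted p = 0.435) and with sequence within 25 bp only (1.54 points, adjusted p = 0.225), so it is less firm than that for CACATG. Against intergenic peaks the difference was 1.97 points for CACATG (-1.45 to 5.40, adjusted p = 0.351) and 0.98 points for CACGTG (-1.97 to 3.93, adjusted p = 0.616), and neither passed the exact test. Intron peaks on the X chromosome held CACGTG at 19.1% and CACATG at 16.7%, which was not tested against the autosomes.

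The share of members with an E-box was higher in the upper parts of the list by signal, a description with no test. From the strongest of the 5 parts to the weakest, either site was at 39.7% (32.4 to 47.6), 39.1%, 39 of 156, 25.6% and 25.2% of members. Promoter peaks within the same signal ranges had 28.3%, 20.9%, 17.8%, 20.2% and 14.6%. Either site was at 3 of the 10 strongest members, 25 of the 50 strongest and 42 of the 100 strongest.

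**Figure D4:**
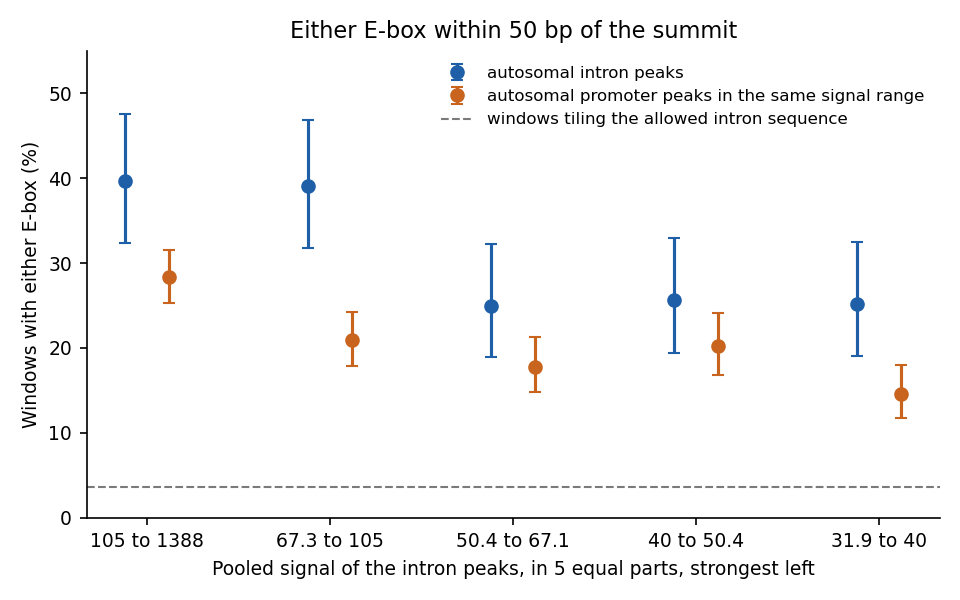
Share of summits with either E-box, CACGTG or CACATG, at most 50 bp away (y axis, %) for autosomal intron peaks in 5 equal parts by pooled signal and for autosomal promoter peaks in the same signal ranges (x axis). Bars are 95% Wilson intervals, and the dashed line marks the 3.58% of windows tiling the allowed intron sequence. Each of the 5 intron shares lies above the promoter share of its range, and the highest is 39.7%.

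Other short sequences also set the summits apart. Of all hexamers, with reverse complements joined, 493 (23.7%) differed between intron summits and their control windows, 285 being more frequent at summits and 208 less frequent (exact McNemar test with Benjamini-Hochberg adjustment over all hexamers). Those higher were led by GAGAGA, at 27.5% of summits against 5.91% of control windows (exact McNemar test, adjusted p = 1.42e-29), and included AGAGAG and also CGTCTC, besides both E-boxes above. GAGAGA was also at 23.8% of promoter summits. Those lower were led by AAAATT (11.4% against 44.5%) and AAATTT (52 summits against 210 control windows). Between intron and promoter peaks 146 hexamers (7.02%) differed, 52 being more frequent at intron peaks and 94 less frequent (Fisher's exact test, adjusted over all hexamers). AAGAAG was at 148 of 779 intron and 287 of 2962 promoter summits and CACATA at 9.88% and 4.19%, while CGCAAA was at 3.34% and 10.8% and GCAAAC at 3.98% and 11.4%.

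The string TGCGTCTC, which contains CGTCTC and was chosen from these data, was at 62 members (7.96%, interval 6.26 to 10.1), against 3 of 779 control windows and 0.615% of the tiles. It was at 9.89% of promoter peaks, 9.18% of intergenic peaks and 2.08% of X intron peaks (0.958 to 4.47). Of the 62, 11 also held either of CACGTG and CACATG, beside 30.9% of all members, and the overlap was not tested. The 62 had a median signal of 74.7, and 4 of the 10 strongest members were among them, in epg-9, W06H8.6, Y43F8B.2 and Y111B2A.12. TGATAA, the site of factors of the GATA family, was at 126 members and 8.11% of the tiles, and GTAAACA, the site of FOXO factors such as DAF-16, at 1.28% and 0.920%. All motifs were searched on both strands, and a match is a description of the letters only.

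Some intron peaks lay at noncoding RNA genes. A noncoding 5′ end was within 200 bp of 95 members (12.2%), against 5.29% of the allowed sequence. The largest kind was genes annotated as ncRNA, near 57 members (7.32%, against 1.48% of the allowed sequence). Genes for tRNAs were that near to 23 members (2.95%, against 0.128% of the allowed sequence), snoRNA genes to 19 (2.44% against 0.101%) and snRNA genes to 5 (0.642% against 0.0487%). A member can count under more than 1 kind. By contrast, 5′ ends of piRNA genes were near 9 members (1.16%) and near 3.37% of the sequence. Either E-box was at 19 of the 95 and at 32.5% of the other 684, a difference that was not tested. Of the 23 members near tRNA genes, 3 had either site.

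The strongest member near a noncoding gene was that in W06H8.6, 171 bp from the 5′ end of the noncoding gene W06H8.16. Next came the peak in zfp-1, the homologue of the leukaemia gene AF10, with a signal of 268 and 21 bp from F54F2.13 (chromosome III, 8797160 to 8797552). In pgp-1, which encodes a P-glycoprotein transporter, a peak of 247 lay 71 bp from a tRNA gene. In dhc-4, which encodes a dynein heavy chain, one of 221 lay 41 bp from the snRNA gene R07E5.16. In skn-1, the Nrf homologue of the oxidative stress response, one of 215 lay 63 bp from T19E7.26, with 122 in replicate 1 and 91.5 in replicate 2. None of these 5 windows held CACGTG or CACATG.

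Gene groups related to the known roles of HLH-30 held few hosts each. Of all genes with allowed intron sequence 3.25% were hosts, and all members had a median signal of 57.7 and a density of 34.5 peaks per Mb over gene spans. Of 23 autophagy genes with allowed intron sequence, 1 was a host, epg-9. Of 20 lysosome genes, 3 were hosts, with a median signal of 54.9: slc-36.1, which encodes an amino acid transporter of the lysosomal type (88.4), the cathepsin L gene cpl-1 (54.9) and gba-3, which encodes a glucocerebrosidase (52.8). Of 29 lipid metabolism genes, 2 were hosts, the fatty acid synthase gene fasn-1 (65.4) and pmt-1, a methyltransferase gene of phosphatidylcholine synthesis (51.1). Lists this small give shares that move by several points with 1 gene.

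The lists of nutrient and stress pathways held 7 to 10 peaks each. In TOR and AMPK signalling 2 of 17 genes were hosts with 7 peaks, 6 in aakg-1 and 1 in let-363, the TOR kinase gene (109). In insulin-like signalling 2 of 10 genes held 10 peaks with a median signal of 67.7, 8 in daf-16 and 2 in the insulin receptor gene daf-2 (77.8 and 56.5). The daf-2 peaks had 23.7 and 24.5 in replicate 1, against 56.0 and 33.7 in replicate 2, and both held CACATG. Of 25 stress response and longevity genes, 5 were hosts with 9 peaks, led by skn-1 (215), tir-1, which encodes a TIR-domain adaptor of the p38 pathway (192), and atf-7, a transcription factor gene of that pathway (65.6). These densities were 82.4, 158 and 151 peaks per Mb, and most of the peaks came from 1 or 2 genes in each list.

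Among transcription factors, 14 of 243 nuclear hormone receptor genes were hosts with 22 peaks and a median of 63.3, led by nhr-19 (541), nhr-64 (169) and nhr-34 (110). Homeobox genes had 1 host of 68, ceh-79 (32.7). The bHLH and Max-like genes had 1 of 31, hlh-11 (62.1), and the GATA factor list 1 of 7, egl-27, which held 4 peaks of 37.1 to 310. In peaks per Mb, density was 78.7 in nuclear hormone receptor genes, 6.08 in homeobox genes and 18.6 in bHLH and Max-like genes. It was 182 in the GATA factor list, all from egl-27, and 60.1 in the list of epidermis and developmental timing. Of 33 genes of the epidermis and developmental timing, 5 were hosts, led by the ERK kinase gene mpk-1 (186), the ETS factor gene lin-1 (151) and lag-1, the CSL factor of Notch signalling (99.2). None of the 33 ribosomal protein genes with allowed intron sequence was a host, in 3.49 kb of such sequence.

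The highest signal in the neuronal and muscle lists was 93.5. In the lysosome list it was 88.4, in the lipid list 65.4, in the bHLH list 62.1 and in the homeobox list 32.7. The upper quartile of all members was 90.3, so most members lie below 93.5 and this does not set these lists apart. Of 37 axon guidance and adhesion genes, 10 were hosts with 13 peaks, a median signal of 41.4 and 37.4 peaks per Mb, led by unc-119 (84.4), the Ror receptor gene cam-1 (79.7) and the Trio gene unc-73 (76.1). Of 29 synapse genes, 3 were hosts: ida-1, of dense core vesicles (78.0), the kinesin gene unc-104 (45.8) and the synaptotagmin gene snt-1 (42.7). Ion channel genes had 1 host of 35, the glutamate receptor gene glr-2 (93.5), with 10.2 peaks per Mb. Body muscle genes had 3 of 28: the tropomyosin gene lev-11 (44.8), the twitchin gene unc-22 (42.1) and the zyxin gene zyx-1 (37.7). The strain carries the allele unc-119(tm4063) and a transgene, and the part of these in the 2 peaks inside unc-119 (84.4 and 52.5) was not tested. No member lay in hlh-30.

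Further down the pooled list intron entries were more frequent and E-boxes in them less so. That list holds 30000 entries, and the thresholded peaks are its strongest. Introns took 11.7% of autosomal entries at ranks 1 to 1434 (interval 9.98 to 13.8), 15.1% from rank 5735 to the end of the thresholded list, 21.9% from rank 7169 to 15000 and 35.1% at ranks 25001 to 30000. The last value is above the 26.9% of autosomal sequence in which an intron summit could fall. Either E-box was at 40.8% of intron entries at ranks 1 to 1434, 25.2% from rank 5735 to the end of the thresholded list, 14.4% at ranks 7169 to 15000 and 4.55% at the end of the list, against 3.58% of the tiles. Promoter windows held 61.8% of autosomal entries at ranks 1 to 1434 and 26.6% at the end.

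**Figure D5:**
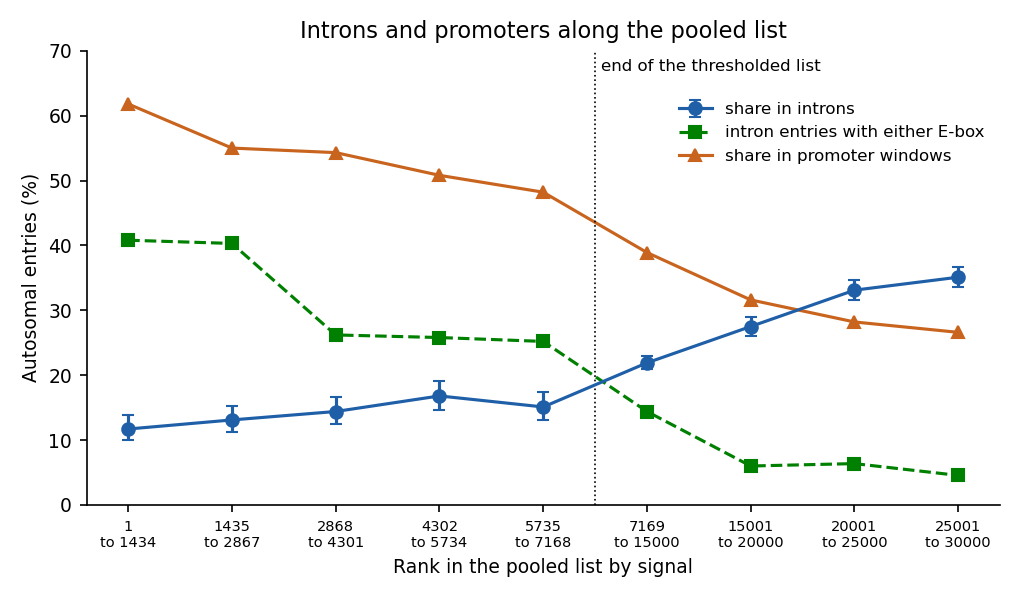
Share of autosomal entries of the pooled list that lie in introns (circles, with 95% Wilson intervals) or in promoter windows (triangles), and share of the intron entries with either E-box at most 50 bp from the summit (squares), in % (y axis) by rank of signal (x axis). Ranges of rank differ in size, and the dotted line marks the end of the thresholded list. The intron share reaches 35.1% and the E-box share of intron entries 4.55% at the end.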

How the data were processed

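HLH-30-GFP ChIP-seq peak lists of 2 replicates were used in narrowPeak format on ce11. Per the labels' descriptions, the authors made lists of peaks and background for each replicate and for both pooled, from alignments and a control, and 1 thresholded list by the irreproducible discovery rate (IDR). Each list other than the thresholded one held 30000 entries. The deposited signal value, column 7, is the authors' score on a scale not stated. The sources used here name no peak caller, aligner or threshold, and no depth is known. Lists on ce10 were not used.

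Summits (column 2 plus column 10) were placed on WBcel235 with Ensembl release 115 (19973 protein-coding genes). Allowed intron sequence is every base that meets the rule for a member. For each member, replicate values were those of the overlapping entry with the nearest summit. Sequence came from RefSeq's copy of WBcel235. Tests were exact (Fisher, McNemar, conditional binomial), two-sided, with Benjamini-Hochberg adjustment within families and a threshold of 0.05, in Python 3.11.15 with scipy 1.17.1, and were tested on simulated data. Intervals are 95% Wilson or exact Poisson intervals, and normal intervals for differences, for counting error only. The members and the 16 gene lists were chosen with earlier results of these data known, so lists carry no test. Genes named are the hosts of the 15 strongest members, the 10 hosts with most members, 3 leading hosts per list, the 10 strongest members with an E-box and the 5 strongest near a noncoding 5′ end, and other genes are said to be chosen later. The string TGCGTCTC, the bins and the tiles were chosen after the data had been seen.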

Additional observations from a re-analysis of the deposited data

How the results depend on the processing

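Of 128 alternative values over 16 results, 109 kept their direction and side of the threshold, or stayed close to the reported value. Leaving out either replicate means taking the strongest entries of the other, as many as the thresholded list holds. The intron share of autosomal peaks, 14.22%, was 17.03% with promoter windows of 500 bp, 10.24% with 2000 bp, 11.20% with windows at genes of every biotype and 12.76% among the 3584 strongest peaks. The difference in CACGTG between intron and promoter peaks, 3.27 points, no longer passed with 2000 bp windows (2.05 points, exact test, adjusted p = 0.293) or with sequence within 25 bp (1.54 points, adjusted p = 0.225), and ran from 1.02 without replicate 1 to 4.44 without replicate 2. Against intergenic peaks, CACGTG turned to -0.113 points with windows at every biotype and ran from -1.79 without replicate 1 to 2.67 without replicate 2, and CACATG turned to -0.220 points within 25 bp. None of these passed. The difference in recovery between intron and promoter peaks was 0.0596 points among the 3584 strongest, where recovery is close to complete by definition. The difference in recovery between intron and intergenic peaks passed with windows at every biotype (-4.96 points, exact test, adjusted p = 0.0350). The 493 hexamers called against control windows became 293 among the 3584 strongest and 207 within 25 bp. The 146 called between intron and promoter peaks became 278 with 500 bp windows, 23 with 2000 bp, 67 among the 3584 strongest, 63 within 25 bp and 310 within 100 bp. The cause of these changes was not tested. Fewer peaks are tested among the 3584 strongest, with 354 intron peaks, and with 2000 bp windows, with 561. Only 514 of the 779 control windows were clear of exons and promoter windows, and with these alone, an alternative added after the data had been seen, the calls for CACGTG and CACATG against control windows held. The ratio of first to later introns ran from 1.85 to 3.43 and passed in every alternative run, each with peaks treated as independent. No paired analysis was possible because both replicates form 1 group.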
